A study of Mus musculus with 24 samples.

Results

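The genes described here are Elane, Prtn3, Ctsg, Mpo, Ms4a3, and Cd34, a set of primary granule and myeloid progenitor genes. The set was picked by name with earlier results of these data known, so counts of its genes are a description. All 6 were found among the 23930 amplicons of the deposited table, each as 1 amplicon, a short stretch of the transcript amplified by PCR. RNA was measured in 24 libraries of sorted splenic monocytes, 4 in each of 6 groups, from untreated mice of 3 genotypes on the C57BL/6 background. These were wild type (WT) mice, Slc29a3-/- mice, which lack the lysosomal nucleoside transporter SLC29A3, and Slc29a3-/- Tlr7-/- mice, which also lack the nucleic acid sensor TLR7. Both alleles were made by CRISPR/Cas9 and act in every cell of the animal, so an effect of the genotype in the monocytes themselves and an effect through other cells cannot be told apart. WT mice were purchased rather than bred as littermates, and the age of the mice used for sequencing is not given in the sources used here.

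Ly6C hi monocytes are the young, classical subset, and Ly6C low monocytes are the patrolling subset that arises from them. Whole splenocytes were first depleted of T, B, NK, neutrophil, and red cell lineages with magnetic beads. Among CD11b+ cells without NK1.1 or Ly6G, the gates were Ly6C high Fcgr4 low (Ly6C hi) and Ly6C low Fcgr4 high (Ly6C low). GEO's labels call both sorted populations macrophages. In the files, Fcgr4, which encodes the Fc receptor used as a gate, lay between 26 and 62.5 RPM in the 12 Ly6C hi libraries and between 605 and 3017 RPM in the 12 Ly6C low libraries. Csf1r, which encodes the receptor of the monocyte growth factor M-CSF, was at 436 RPM or more in every library. The values are RPM, that is reads scaled to a total of 1000000 in each library, and 1 read was worth 0.0686 to 0.0812 RPM, which gives between 12311040 and 14572270 reads per library. A limit of 3 reads therefore stands at 0.206 to 0.244 RPM, and it covers counting error only. WT replicates 1 to 3 of both subsets carried barcodes 11 to 16 and stood apart from WT replicate 4, whose barcode came from the range 24 to 46 of all other libraries. For this reason, values against replicate 4 as the sole WT library are also given, for genes that still passed the filter. WT then has no spread of its own, the fit assumes that the lone library varies like those of the mutant groups, and a call that is lost or kept says little by itself. The RNA amplicons of Slc29a3 (127 to 413 RPM in Ly6C hi libraries over all genotypes) and Tlr7 (111 to 345 RPM) were read in the knockout libraries too. A small insertion or deletion need not remove the RNA, so these levels do not check the genotypes.

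Primary, or azurophil, granules are the first granules that a developing granulocyte makes. They are filled in the bone marrow at the promyelocyte stage with myeloperoxidase and with serine proteases, which are later released into phagosomes to attack microbes. The genes for these proteins are switched on in granulocyte-monocyte progenitors, remain on in early committed precursors, and are shut down as neutrophils and monocytes mature, while the proteins persist in the granules. Within the set, Elane (neutrophil elastase), Prtn3 (proteinase 3), and Ctsg (cathepsin G) encode the serine proteases, and Mpo encodes myeloperoxidase, which makes hypochlorous acid. Ms4a3 encodes a membrane-spanning protein that marks granulocyte-monocyte progenitors and their offspring. Cd34 encodes a sialomucin on the surface of blood stem and progenitor cells and of vessel endothelium.

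By RefSeq on GRCm38.p6, which is the mm10 build, Prtn3 (chromosome 10, 79879667 to 79883174) and Elane (chromosome 10, 79886312 to 79888216) lie next to each other on the plus strand, with 3137 bases between them. Mpo is on chromosome 11 (87793784 to 87804412, plus strand), Ctsg on chromosome 14 (56099885 to 56102574, minus strand), Ms4a3 on chromosome 19 (11629499 to 11640851, minus strand), and Cd34 on chromosome 1 (194938821 to 194961292, plus strand). The place of each amplicon within its transcript is not given in the table. Promoter windows from 250 bases before to 50 bases after the start were found for 6 of 6 genes. Motifs of 3 factors known from myeloid progenitors were searched in them on both strands, namely MYB (AACNG), PU.1 (GAGGAA), and C/EBP (TTGCNNAA). Shown here are the windows of the neighbours Elane and Prtn3, of Ms4a3, whose matches differ from theirs, and of Cd34, whose RNA was called in none of the comparisons. Capitals mark the motif matches, and a MYB match on the opposite strand reads as its reverse complement. 
Elane promoter, chr10:79886062-79886361, plus strand: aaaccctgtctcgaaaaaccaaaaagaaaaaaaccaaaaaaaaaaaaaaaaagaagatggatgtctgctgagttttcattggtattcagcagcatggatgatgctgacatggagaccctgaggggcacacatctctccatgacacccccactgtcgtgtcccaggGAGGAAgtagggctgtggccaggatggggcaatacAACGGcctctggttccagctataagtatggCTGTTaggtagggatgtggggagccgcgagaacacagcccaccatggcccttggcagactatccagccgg
Prtn3 promoter, chr10:79879417-79879716, plus strand: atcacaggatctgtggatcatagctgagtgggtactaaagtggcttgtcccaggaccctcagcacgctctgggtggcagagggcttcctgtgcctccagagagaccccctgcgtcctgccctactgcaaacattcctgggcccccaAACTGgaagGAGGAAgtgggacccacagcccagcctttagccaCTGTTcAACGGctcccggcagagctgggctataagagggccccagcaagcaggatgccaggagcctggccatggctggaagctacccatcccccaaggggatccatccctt
Ms4a3 promoter, chr19:11640802-11641101, minus strand: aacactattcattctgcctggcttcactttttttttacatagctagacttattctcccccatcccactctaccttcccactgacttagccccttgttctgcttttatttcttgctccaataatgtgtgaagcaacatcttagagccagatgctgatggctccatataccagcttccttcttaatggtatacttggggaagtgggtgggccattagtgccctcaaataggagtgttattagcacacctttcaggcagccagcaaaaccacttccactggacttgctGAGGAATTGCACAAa
Cd34 promoter, chr1:194938571-194938870, plus strand: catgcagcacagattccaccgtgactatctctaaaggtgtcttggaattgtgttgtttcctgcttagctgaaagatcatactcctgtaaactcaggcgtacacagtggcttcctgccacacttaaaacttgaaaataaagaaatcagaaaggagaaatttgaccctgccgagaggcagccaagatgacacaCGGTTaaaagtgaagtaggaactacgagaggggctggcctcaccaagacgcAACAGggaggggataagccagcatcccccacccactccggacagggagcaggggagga

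The PU.1 letters occurred in 5 of the 6 windows and in 28.3% of all 32851 windows of this length in the RefSeq table. The exception was Cd34. The match began at -85 from the start in Elane and at -95 in its neighbour Prtn3, and Mpo held 2 matches, beginning at -247 and -224. In Ctsg it began at -216. In Ms4a3 it lay after the start, at 35, and ran directly into the only C/EBP match of the set, at 41, without overlapping it. The C/EBP letters occurred in 10.8% of all windows. MYB letters were found in 5 of 6 windows, all but that of Ms4a3, against 80.3% of all windows. These matches describe letters in a window and do not show that a factor binds there.

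**Figure D1:**
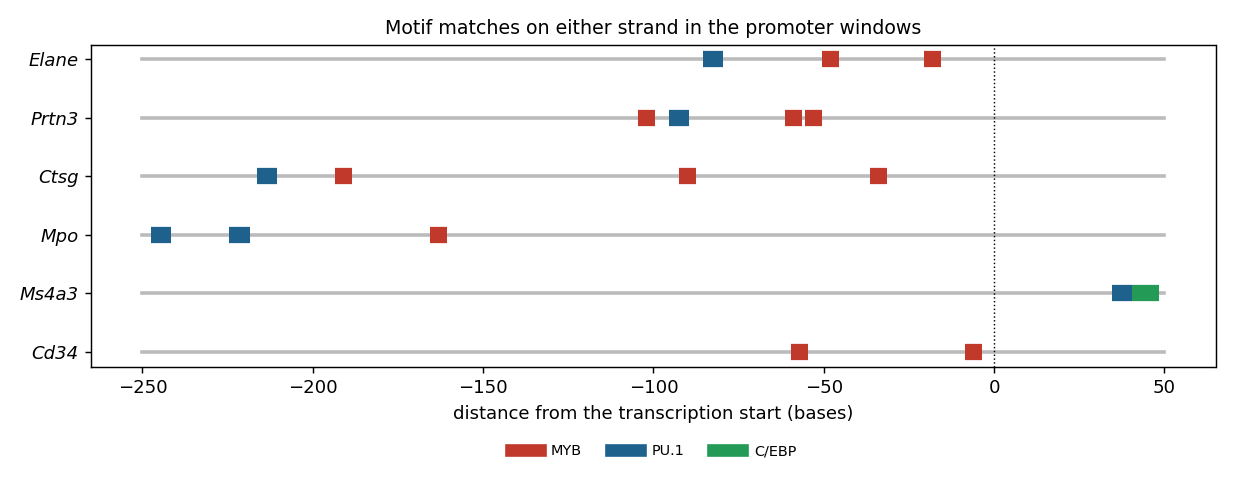
Motif matches in the promoter windows of the 6 genes. The horizontal axis gives the distance from the transcription start in bases, each grey line is 1 window, and coloured blocks are matches to MYB, PU.1, or C/EBP on either strand. PU.1 blocks are seen in every window but that of Cd34, and the only C/EBP block adjoins the PU.1 block of Ms4a3.

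In WT mice, transcripts of the granule genes and Ms4a3 were readily detected in Ly6C hi monocytes and were lower in Ly6C low monocytes. Elane stood at 79.1, 86.9, 86.2, and 102 RPM in the 4 WT Ly6C hi libraries, and at 5.45, 13.9, 3.72, and 0.920 RPM in the 4 WT Ly6C low libraries. Every Ly6C hi library was above every Ly6C low library, and replicate 4 was the lowest of the Ly6C low group. The fitted difference, as a log2 fold change of RPM + 1 from limma, was 4.04 ± 0.45 (SE, n = 4 against 4, adjusted p = 1.4e-07). Calls here and below need a fold change over 1.5 and a Benjamini-Hochberg adjusted p under 0.05 over all amplicons tested. In this comparison of the WT subsets, 5 of the 6 genes were called higher, against 17.5% of the 11042 amplicons tested, and the same 5 did not overlap between the groups, against 20.1% of amplicons. The log2 fold changes of the other 4 were 4.45 for Prtn3, 3.95 for Ms4a3, 3.02 for Ctsg, and 1.09 for Mpo (adjusted p from 7e-10 to 0.0047). Mpo was above 1 RPM in 1 WT Ly6C low library only and passed the filter chiefly through the Ly6C hi libraries. The number of genes called is therefore not read as support. With WT replicate 4 alone, 1 library against 1, the values of the 5 genes ranged from 2.11 for Mpo to 6.70 for Prtn3. Cd34 was not called, with a difference of 0.26 (95% CI, -0.43 to 0.95, adjusted p = 0.62), and this became -0.39 with WT replicate 4 alone.

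Loss of Slc29a3 was accompanied by higher levels of the 3 serine protease genes in Ly6C hi monocytes. The comparison asks how RNA levels of this subset differ between the 2 genotypes, and effects of nucleoside storage itself were not tested. Elane rose from the WT values given above to 400, 225, 734, and 578 RPM in the 4 Slc29a3-/- libraries. Even the lowest of these, replicate 2, was above the highest WT library, at 102 RPM. The mean was 484 ± 220 RPM (SD, n = 4) against 88.6 ± 9.76 RPM in WT, and the fitted log2 fold change was 2.31 ± 0.33 (SE, 95% CI, 1.62 to 3.01, adjusted p = 0.00034, limma).

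Prtn3 was at 152, 146, 161, and 207 RPM in WT Ly6C hi monocytes and at 649, 370, 1256, and 1046 RPM in Slc29a3-/- ones. The groups did not overlap, and the log2 fold change was 2.18 ± 0.33 (SE, adjusted p = 0.0006, limma). Ctsg was at 59.4, 54.9, 54.5, and 84.6 RPM in WT and at 273, 126, 550, and 465 RPM in Slc29a3-/- libraries. Again the groups did not overlap, with replicate 2 the lowest and replicate 3 the highest. The log2 fold change was 2.28 ± 0.40 (SE, adjusted p = 0.0013, limma).

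Mpo and Ms4a3 rose by similar factors from different levels. Mpo was low in this assay, at 1.32, 1.46, 1.89, and 3.98 RPM in WT and at 10.3, 6.64, 18.2, and 16.7 RPM in Slc29a3-/- Ly6C hi monocytes. The values correspond to 19 to 51 reads and 84 to 230 reads per library, and the groups did not overlap. The log2 fold change was 2.12 ± 0.33 (SE, adjusted p = 0.00064, limma). Ms4a3, at 41.5, 41.4, 46.8, and 49.4 RPM in WT, varied less between WT libraries than the other genes of the set, with a coefficient of variation of 8.89%. In Slc29a3-/- mice it was at 204, 127, 306, and 250 RPM, all above the WT libraries. Its log2 fold change was 2.21 ± 0.27 (SE, adjusted p = 0.00016, limma).

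**Figure D2:**
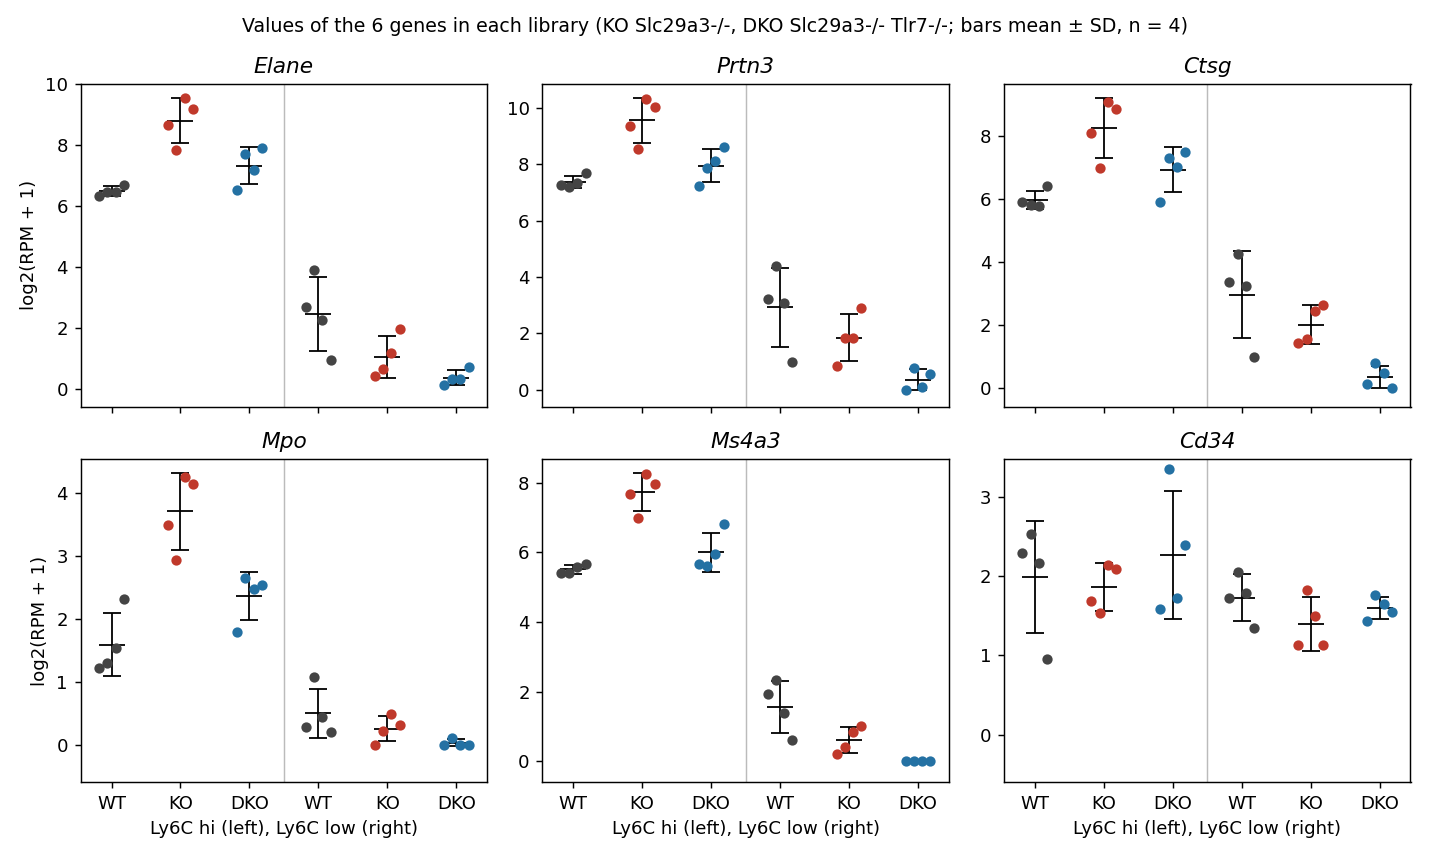
Level of each of the 6 genes in each library. The vertical axes give log2(RPM + 1), each with its own range, and the groups are WT, Slc29a3-/- (KO), and Slc29a3-/- Tlr7-/- (DKO) for Ly6C hi on the left and Ly6C low on the right of each panel. Points are libraries and bars are the mean ± SD of 4. Among the Ly6C hi groups, the KO points of Elane, Prtn3, Ctsg, Mpo, and Ms4a3 all lie above the WT points, whereas the Cd34 points of the 3 genotypes overlap.

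Of the 6 genes, 5 were thus called higher in Slc29a3-/- than in WT Ly6C hi monocytes, against 8.15% of the 10561 amplicons tested. The 5 also did not overlap between the groups, against 11.9% of all amplicons, and for each the exact two-sided permutation p was 0.0286, the smallest that 4 against 4 libraries can give. The median log2 fold change of the 6 genes was 2.20, compared with -0.14 over all amplicons tested. The latter moved to 0.02 under TMM scaling, under which 1287 amplicons were called higher and 1072 lower instead of 861 and 1507. The 5 genes stayed called, at 2.26 to 2.48. Leaving out any 1 of the 8 libraries gave log2 fold changes of 1.93 to 2.71 for these 5 genes, with adjusted p no higher than 0.0065 (limma). Against WT replicate 4 alone, the log2 fold changes were 2.10 for Elane, 2.07 for Ms4a3, 1.85 for Prtn3, 1.84 for Ctsg, and 1.40 for Mpo, and none was called (adjusted p from 0.052 to 0.20, limma, 4 libraries against 1). Under that setting 129 of 10198 amplicons were called higher.

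Cd34 did not follow the others. It was at 3.89, 4.79, 3.50, and 0.936 RPM in WT and at 2.23, 1.90, 3.41, and 3.26 RPM in Slc29a3-/- Ly6C hi monocytes. The groups overlapped over most of their range, and the lowest and the highest values were both WT. The log2 fold change was -0.12 (95% CI, -0.97 to 0.73, adjusted p = 0.85, limma), on 12 to 69 reads per library. Its direction was not stable, at 0.00 under TMM scaling and 0.91 with WT replicate 4 alone.

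In Ly6C hi monocytes that lacked Tlr7 as well, the 5 genes were closer to WT. Elane was at 90.0, 204, 143, and 237 RPM in the 4 Slc29a3-/- Tlr7-/- libraries. Replicate 1 was within the WT range and the other 3 were above it. Prtn3 was at 148, 234, 275, and 391 RPM, Ctsg at 59.5, 157, 131, and 181 RPM, Mpo at 2.47, 5.28, 4.59, and 4.81 RPM, and Ms4a3 at 50.3, 47.4, 60.4, and 112 RPM. Of the 5 genes, each thus had 1 or more libraries within the WT range.

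Against WT, 0 of the 6 genes were called in Slc29a3-/- Tlr7-/- Ly6C hi monocytes by limma, beside 0.312% of amplicons called higher. The log2 fold changes were 0.96 for Ctsg, 0.83 for Elane, 0.78 for Mpo, 0.58 for Prtn3, and 0.50 for Ms4a3 (adjusted p from 0.15 to 0.31). The intervals still included increases, with upper limits from 1.08 for Ms4a3 to 1.82 for Ctsg, and 3 genes (Elane, Mpo, and Ctsg) had an unadjusted p under 0.05. With WT replicate 4 alone, the values of the 5 genes fell to between 0.05 for Mpo and 0.62 for Elane. Cd34 was at 2.0, 9.26, 2.30, and 4.25 RPM, where replicate 2 was the highest of all 24 libraries, and its log2 fold change from WT was 0.28 (95% CI, -0.57 to 1.13, adjusted p = 0.71, limma). Against WT replicate 4 alone this value was 1.31 (adjusted p = 1).

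The direct comparison of the mutant genotypes asks how far the increase depended on TLR7. Between Slc29a3-/- and Slc29a3-/- Tlr7-/- Ly6C hi monocytes, the same 5 genes were called higher, against 9% of amplicons. The difference, as log2 fold change, was 1.72 ± 0.27 (SE) for Ms4a3, 1.60 ± 0.33 for Prtn3, 1.48 ± 0.33 for Elane, 1.35 ± 0.33 for Mpo, and 1.32 ± 0.40 for Ctsg (adjusted p from 0.00064 to 0.032, limma). Mpo and Ms4a3 did not overlap between these groups, as did 9.81% of amplicons. Elane, Prtn3, and Ctsg overlapped, because Slc29a3-/- replicate 2 was below Slc29a3-/- Tlr7-/- replicate 4. The call of Ctsg was the least stable. It was lost without Slc29a3-/- replicate 1, 3, or 4 or Slc29a3-/- Tlr7-/- replicate 1 or 3, with log2 fold changes of 0.98 to 1.38 and adjusted p up to 0.11. It was also lost without the filter on low values, in a fit of only these 2 groups, and in a fit of all 24 libraries. Cd34 differed by -0.40 (95% CI, -1.25 to 0.45, adjusted p = 0.51).

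**Figure D3:**
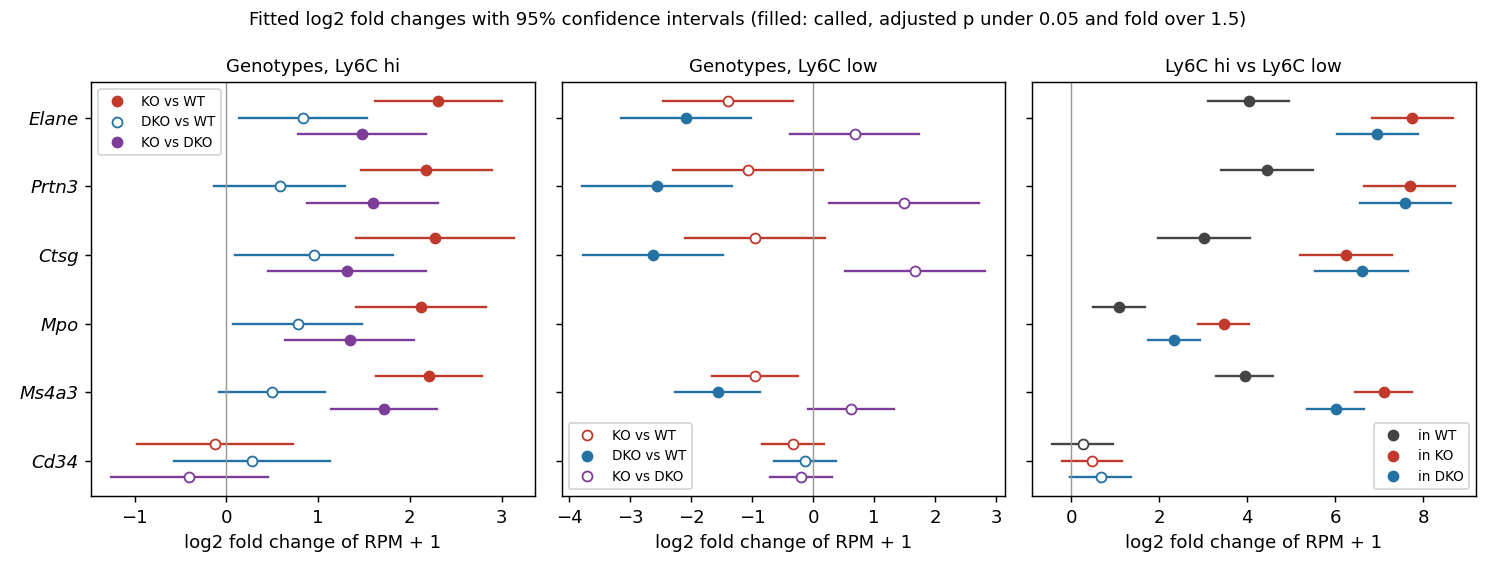
Fitted log2 fold changes of RPM + 1 for the 6 genes, with 95% confidence intervals as bars. Panels give the genotype comparisons in Ly6C hi, the genotype comparisons in Ly6C low, and Ly6C hi against Ly6C low within each genotype (KO, Slc29a3-/-, and DKO, Slc29a3-/- Tlr7-/-). Filled points were called, and Mpo has no point in the middle panel because it did not pass the filter there. In Ly6C hi, KO is above WT and above DKO for 5 genes, and all Cd34 intervals cross 0.

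The 5 genes moved together from library to library. Relative to Elane in the same library, the median level of Prtn3 was 1.89, 1.68, and 1.65 in WT, Slc29a3-/-, and Slc29a3-/- Tlr7-/- Ly6C hi monocytes. Ctsg stood at 0.69, 0.72, and 0.77 of Elane, and Ms4a3 at 0.50, 0.47, and 0.45. The ratio of Mpo moved the most, from 0.0193 in WT to 0.0274 and 0.0266, although the WT libraries spread from 0.0167 to 0.0389. Amplicons can differ in how well they amplify, so these ratios compare groups and not the amounts of the different transcripts. Over the 12 Ly6C hi libraries, Pearson's r of log2(RPM + 1) among the 5 genes ran from 0.92 (Ctsg with Ms4a3) to 0.99 (Elane with Ctsg). After the genotype means were subtracted it still ran from 0.65 (Mpo with Ms4a3) to 0.97 (Elane with Ctsg). Between Cd34 and the 5 genes it ran from -0.13 to 0.08 over the libraries and from 0.05 to 0.44 after the genotype means were subtracted. In Ly6C low monocytes the corresponding values for Cd34 were 0.37 to 0.53 and 0.41 to 0.59. The libraries share genotype groups and a scaling to 1000000 RPM, and these correlations are given as a description.

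**Figure D4:**
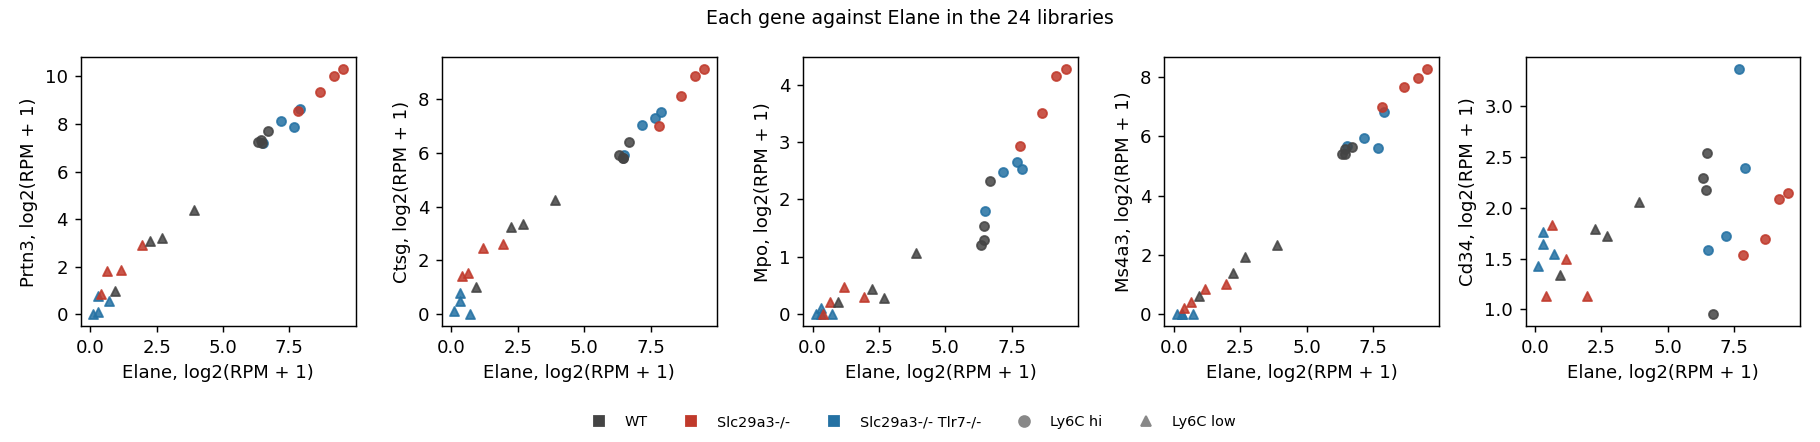
Each of the other 5 genes against Elane in the 24 libraries, as log2(RPM + 1) on both axes. Colours give the genotype, circles are Ly6C hi, and triangles are Ly6C low libraries. Prtn3, Ctsg, Ms4a3, and, above the lowest levels, Mpo climb with Elane, whereas the Cd34 circles show no such trend.

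Among the 7558 other amplicons with a mean of at least 10 RPM in Ly6C hi monocytes, those most like Elane over the 12 libraries were Ptgr1 (Pearson's r = 0.97), Desi1 (0.97), and Atrn (0.96). Atrn was nearest to Mpo (0.98), Sgms2 nearest to Ctsg (0.97), and Tmx4 nearest to both Prtn3 (0.96) and Ms4a3 (0.98). Atrn, Desi1, Ptgr1, and Sgms2 were each among the 10 nearest amplicons of 4 of the 5 genes. Prss57, which encodes a further serine protease of the primary granule, was among the 10 nearest of 2. Cd34 had no neighbour as close, its nearest being Polr1e (0.83).

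Other genes of the primary granule and of protease handling did not move as a block. Of 13 tested in Ly6C hi monocytes, 3 were higher and 1 was lower in Slc29a3-/- than in WT, with a median log2 fold change of -0.11. Prss57 rose by 2.13 (adjusted p = 0.00022), Serpinb1a, which encodes an inhibitor of elastase, proteinase 3, and cathepsin G, by 1.87 (adjusted p = 0.0065), and Cd63, which encodes a membrane protein of these granules, by 1.60 (adjusted p = 0.0072, limma). Lyz1, a lysozyme gene, was lower by -0.62 (adjusted p = 0.032). Ctsc, whose product activates the granule proteases, was at -0.14 (adjusted p = 0.69), and Srgn, which encodes the proteoglycan that packs them, at -0.45 (adjusted p = 0.13). The median of the 13 genes was -0.01 with WT replicate 4 alone. Of this list, Bpi was at 0 in all 24 libraries. Against Slc29a3-/- Tlr7-/- monocytes, Prss57, Serpinb1a, and Cd63 were again higher, by 1.71, 2.23, and 2.25, and Lyz1 was lower, by -1.25.

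Progenitor genes changed in both directions. Of 9 tested in Ly6C hi monocytes, 2 were higher in Slc29a3-/- than in WT, Hlf by 1.61 and Erg by 1.15, both encoding transcription factors of stem cells. Lower were Flt3 by -1.57, Sox4 by -1.36, and Gata2 by -0.99 (adjusted p from 0.00071 to 0.017, limma). Kit, which encodes the stem cell factor receptor, was at 0.81 (adjusted p = 0.072), and Myb at 0.53 (adjusted p = 0.19). The median of the progenitor list was 0.53 against all WT libraries and 1.35 against WT replicate 4 alone, where 8 genes were tested. Of 10 transcription factors of granulocytes and monocytes, Gfi1 rose by 1.93 and Cebpe by 1.92. Both are known as drivers of granulocyte development. Lower were Klf4 by -1.54 and Irf8 by -1.43, known for monocyte development, and Cebpa by -1.08 and Cebpd by -0.98. Spi1, which encodes PU.1, was at -0.02 (adjusted p = 0.91).

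**Figure D5:**
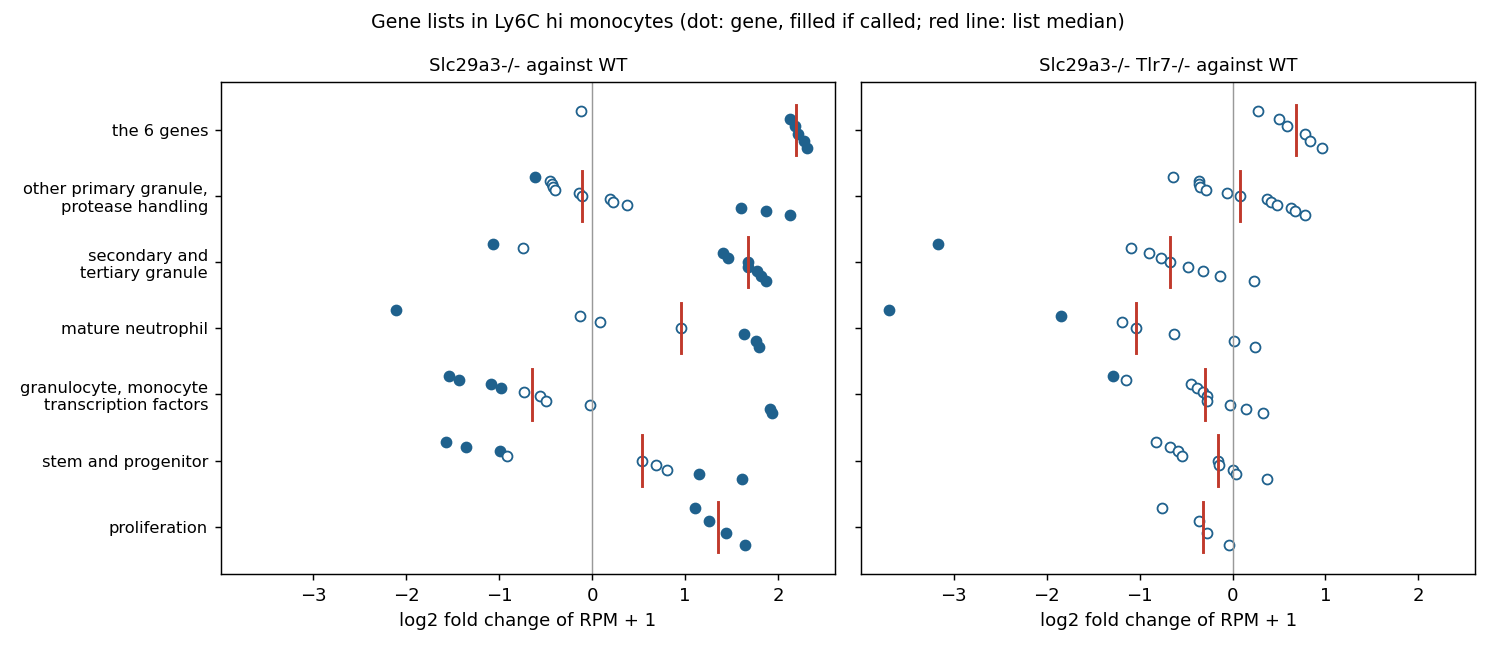
Log2 fold changes of RPM + 1 in Ly6C hi monocytes against WT, for Slc29a3-/- on the left and Slc29a3-/- Tlr7-/- on the right. Each dot is 1 gene of a list, filled if called, and the red line is the median of the list. On the left the set described here, the secondary and tertiary granule genes, and the proliferation genes lie mostly to the right of 0, and on the right all 6 dots of the set are open.

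Transcripts of later neutrophil stages moved with the 5 genes in Slc29a3-/- Ly6C hi monocytes, although the sort excluded Ly6G+ cells. Of 9 secondary and tertiary granule genes tested, 7 were higher than in WT, among them Camp (1.87), Lcn2 (1.81), and Ltf (1.78), and 1 was lower, Mmp8 (-1.07). The summed level of this list was 14672 to 22255 RPM in WT, 44910 to 85404 RPM in Slc29a3-/-, and 6985 to 22612 RPM in Slc29a3-/- Tlr7-/- libraries, the last group with Olfm4 at 0 throughout. Of 7 genes of mature neutrophils, S100a9, S100a8, and Ly6g were higher and Retnlg was lower. Their sum was 11338 to 13446, 34607 to 60797, and 5846 to 19390 RPM in the same order, with none of the 7 at 0 in every library of a group. Classical monocytes, too, express S100a8 and S100a9. These 2 genes made up most of that sum. In Slc29a3-/- libraries S100a9 had a mean of 29278 RPM and S100a8 of 13305 RPM, beside 42928 RPM for the list. Ly6g had a mean of 91.3 RPM there and of 28.1 RPM in WT. The 4 proliferation genes (Cdk1, Top2a, Mki67, and Mcm5) all rose, and their sum was 255 to 371, 673 to 1084, and 186 to 348 RPM. Against WT replicate 4 alone, 2 of the 9 secondary and tertiary granule genes, none of the 7 mature neutrophil genes, and 3 of the 4 proliferation genes were called higher, with median log2 fold changes of 1.96, 1.74, and 1.82. The part of these transcripts in the results for the 5 genes was not tested. In bulk RNA, more cells that express a gene and more RNA per cell cannot be told apart.

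The order of the Slc29a3-/- libraries in the neutrophil and proliferation lists was not the same as in the 5 genes. Within the Slc29a3-/- group, replicate 3 was the highest for all 5 genes, whereas replicate 4 had the highest sums of secondary and tertiary granule genes (85404 RPM) and of mature neutrophil genes (60797 RPM). Replicate 2 was the lowest for all 5 genes but had the next highest sums of both lists, at 51301 and 40697 RPM. Replicate 3 was close to it in the secondary and tertiary granule list, at 50675 RPM. The mature neutrophil sums are mostly S100a9 and S100a8, which classical monocytes also express. The proliferation list summed to 768, 673, 1061, and 1084 RPM and the stem and progenitor list to 228, 139, 267, and 324 RPM in replicates 1 to 4, with replicate 2 the lowest in both. What these orders mean for the source of the transcripts was not tested. In Slc29a3-/- Tlr7-/- monocytes, the median log2 fold change from WT was 0.68 for the 6 genes, -0.68 for the secondary and tertiary granule list, and -1.04 for the mature neutrophil list. Of these, Mmp9 in the secondary and tertiary list and Retnlg and Il1r2 in the mature neutrophil list were called lower.

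Genes of T, NK, and dendritic cells were lower in Slc29a3-/- than in WT Ly6C hi monocytes, and WT replicate 4 was the lowest WT library for each of these lists. The 3 T cell genes, 3 NK cell genes, and 5 dendritic cell genes were all called lower than in WT. Their sums fell from 11.9 to 82.3 RPM, 41.3 to 203 RPM, and 52.8 to 107 RPM in WT to 1.59 to 6.96 RPM, 4.92 to 14.5 RPM, and 6.72 to 11.8 RPM. WT replicate 4 stood at 11.9, 41.3, and 52.8 RPM, above the Slc29a3-/- libraries, and against it alone 3 of the dendritic cell genes and none of the T or NK cell genes were called lower. Of 4 basophil and mast cell genes tested, 3 were called lower, and the sum of the list of 5 was 5.07 to 28.1 RPM in WT and 4.67 to 9.83 RPM in Slc29a3-/- libraries. The 3 megakaryocyte and platelet genes gave no call and summed to 4.76 to 23.5 and 5.64 to 10.8 RPM. Of the eosinophil genes, Prg2 was lower and Siglecf higher, and the 3 summed to 13.9 to 106 and 7.27 to 35.8 RPM. For basophil and eosinophil genes, WT replicate 4, at 5.07 and 13.9 RPM, lay within the Slc29a3-/- range, and no gene of these lists was called against it alone. B cell and erythroid genes did not pass the filter in Ly6C hi libraries, with sums of at most 1.67 and 1.62 RPM. Of 8 monocyte genes, Spn and Fcgr4 were higher and Nr4a1 was lower, and their sum was 5554 to 6446 RPM in WT and 3965 to 4945 RPM in Slc29a3-/- libraries. Among Slc29a3-/- Tlr7-/- Ly6C hi libraries, replicate 1 had 267 RPM of NK cell and 18.9 RPM of T cell genes. Replicates 2 to 4 were at most at 21.7 and 2.68 RPM. Replicate 1 was also the lowest of that group for Elane, Prtn3, Ctsg, and Mpo. The part of all these cell types in the results for the 6 genes was not tested.

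Because Cd34 also marks endothelium, its own relatives and endothelial genes were listed beside it. The sialomucin genes Podxl, Podxl2, and Emcn together gave at most 0.320 RPM in any library, and none passed the filter. The endothelial genes Cdh5, Kdr, Tie1, and Tek summed to 0.713 to 5.29 RPM in Ly6C hi and to 0.238 to 3.55 RPM in Ly6C low libraries. None of those tested was called between genotypes. Cd34 itself was at 0.936 to 9.26 RPM in all 24 libraries, so levels this low rest on 12 to 114 reads.

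In Ly6C low monocytes, mean levels of Elane, Prtn3, Ctsg, and Ms4a3 were highest in WT and lowest in Slc29a3-/- Tlr7-/- mice. As given below, none was called between Slc29a3-/- and either other genotype. Elane was at 0.318, 0.560, 1.26, and 2.86 RPM in Slc29a3-/- and at 0.081, 0.238, 0.237, and 0.639 RPM in Slc29a3-/- Tlr7-/- libraries, against the WT values of 0.920 to 13.9 RPM given above. The lowest WT library, replicate 4, lay within the Slc29a3-/- range. Prtn3 was at 8.32, 20.1, 7.38, and 0.996 RPM in WT, at 0.795, 2.56, 2.60, and 6.44 RPM in Slc29a3-/-, and at 0, 0.715, 0.079, and 0.479 RPM in Slc29a3-/- Tlr7-/- libraries. Ctsg was at 9.29, 18, 8.50, and 0.996 RPM, at 1.67, 1.92, 4.50, and 5.16 RPM, and at 0.081, 0.715, 0.395, and 0 RPM in the same order. In all 3 genes the WT group spread widely, with replicate 2 the highest and replicate 4 the lowest.

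Ms4a3 was at 2.80, 4.05, 1.61, and 0.536 RPM in WT and at 0.159, 0.320, 0.789, and 1.03 RPM in Slc29a3-/- Ly6C low monocytes. It was not detected in any of the 4 Slc29a3-/- Tlr7-/- libraries. With the floor of 3 reads per library, at most 0.242 RPM there, the WT mean of 2.25 RPM was at least 9.28-fold higher. Mpo gave 2 to 16 reads per library in WT, 0 to 5 in Slc29a3-/-, and 0 or 1 in Slc29a3-/- Tlr7-/- Ly6C low monocytes. It did not pass the filter of 1 RPM in 4 libraries and was not tested.

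Between Slc29a3-/- and WT Ly6C low monocytes, 0 of the 5 genes tested were called by limma, beside 2.53% of amplicons called lower. The log2 fold changes were -1.40 for Elane, -1.07 for Prtn3, -0.95 for Ctsg, and -0.95 for Ms4a3 (adjusted p from 0.11 to 0.34), and Elane and Ms4a3 had an unadjusted p under 0.05. Without WT replicate 4, these 4 genes were called lower, at -1.90, -1.71, -1.61, and -1.26, and with WT replicate 4 alone Ctsg was at 1.01. The outcome of this comparison thus turned on 1 library.

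Between Slc29a3-/- Tlr7-/- and WT Ly6C low monocytes, 4 of the 5 genes tested were called lower, against 6.03% of amplicons. None of these 4 genes reached 1 RPM in any Slc29a3-/- Tlr7-/- library, so they passed the filter through the WT and Slc29a3-/- libraries, and their number is not read as support. The log2 fold changes were -2.62 ± 0.54 (SE) for Ctsg, -2.56 ± 0.58 for Prtn3, -2.08 ± 0.50 for Elane, and -1.57 ± 0.33 for Ms4a3 (adjusted p from 0.016 to 0.027, limma). The groups did not overlap in these 4 genes, as in 9.29% of amplicons. Without WT replicate 1, 2, or 3, Ms4a3 did not pass the filter and the other 3 genes lost their calls, at -1.60 to -2.53 (adjusted p from 0.052 to 0.085, limma). In a fit of the 2 groups alone none of the 4 genes passed the filter. With WT replicate 4 alone Ctsg was at -0.65 (adjusted p = 0.60), and the other 3 genes were not tested. Without Slc29a3-/- Tlr7-/- replicate 3, 2 of the 4 calls were left. Between the mutant genotypes, 0 of the 5 genes were called by limma, beside 1.22% of amplicons called higher. Prtn3 and Ctsg differed by 1.49 and 1.67 (unadjusted p = 0.021 and 0.0076, adjusted p = 0.20 and 0.14). Ms4a3, Prtn3, and Ctsg did not overlap between these groups, as did 7.82% of amplicons. The nearest libraries held 2 and 0 reads of Ms4a3, 10 and 9 reads of Prtn3, and 21 and 9 reads of Ctsg. Because these genes passed the filter through the WT and Slc29a3-/- libraries, their number is not read as support.

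The spread among WT Ly6C low libraries was shared with neutrophil genes and with some other lists. The secondary and tertiary granule list summed to 638, 1290, 553, and 43.6 RPM in WT replicates 1 to 4, and the mature neutrophil list to 814, 1400, 706, and 217 RPM. Replicate 2 was the highest and replicate 4 the lowest, as for the 3 protease genes. The basophil and mast cell list (26.6, 35.9, 16.2, and 4.75 RPM) and the stem and progenitor list (62.4, 94.7, 63.0, and 61.3 RPM) had the same extremes. Replicate 4 was instead the highest for the T cell, B cell, dendritic cell, endothelial, and erythroid lists. In Slc29a3-/- Tlr7-/- Ly6C low monocytes the secondary and tertiary granule and mature neutrophil sums were 10.6 to 50.4 RPM and 149 to 182 RPM, with Ly6g at 0 in all 4 libraries. Olfm4, of the secondary and tertiary list, was at 0 in all 12 Ly6C low libraries. The part of the genes of these lists in the lower values of the 4 genes was not tested.

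Cd34 in Ly6C low monocytes was at 2.31, 3.16, 2.46, and 1.53 RPM in WT, at 1.19, 2.56, 1.81, and 1.19 RPM in Slc29a3-/-, and at 1.70, 2.38, 2.13, and 1.92 RPM in Slc29a3-/- Tlr7-/- libraries. All 3 groups overlapped. Its log2 fold changes were -0.33 (95% CI, -0.83 to 0.17) and -0.13 (95% CI, -0.64 to 0.37) from WT, so that a value of -1 or 1 lay outside both intervals on this scale, which understates changes at such low levels.

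The subsets were also compared within each mutant genotype. Comparing the subsets in Slc29a3-/- mice, 5 of 6 genes were called higher, against 16.5% of amplicons, and the same 5 did not overlap, as did 21.4% of amplicons. The log2 fold changes were 7.75 for Elane, 7.70 for Prtn3, 7.11 for Ms4a3, 6.25 for Ctsg, and 3.46 for Mpo. Mpo was at most at 0.394 RPM and Ms4a3 at most at 1.03 RPM in these Ly6C low libraries. Both passed the filter chiefly through the Ly6C hi libraries, so the number of genes called is not read as support. In Slc29a3-/- Tlr7-/- mice the same 5 genes were called, against 18.7% of amplicons, without overlap, as in 15.5% of amplicons. None of the 5 exceeded 0.715 RPM in any Ly6C low library of this genotype. They passed the filter through other libraries, and their number is not read as support. In this genotype Ms4a3, at a mean of 67.5 RPM in Ly6C hi monocytes, was at least 278-fold higher than the floor of the Ly6C low libraries. Elane, Prtn3, and Ctsg differed by 6.95, 7.59, and 6.60. Cd34 was not called in either genotype (0.47, adjusted p = 0.28, and 0.67, adjusted p = 0.13).

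Interaction terms in a fit of all 24 libraries tested if a genotype effect differed from subset to subset, as the Ly6C hi effect less the Ly6C low effect. For Slc29a3-/- against WT, this difference was called above 0 for 5 of 6 genes, against 4.11% of amplicons. It was 3.71 ± 0.63 (SE) for Elane, 3.24 ± 0.71 for Prtn3, 3.23 ± 0.72 for Ctsg, 3.16 ± 0.44 for Ms4a3, and 2.37 ± 0.40 for Mpo (adjusted p from 1e-04 to 0.0052, limma). Mpo passed the filter of this fit through the Ly6C hi libraries and was above 1 RPM in 1 Ly6C low library only. The number of genes called is therefore not read as support. The pseudocount holds the Ly6C low effect of Mpo near 0, and its difference follows the Ly6C hi effect. With WT replicate 4 alone, which leaves 1 WT library in each subset, it was 0.83 for Ctsg to 2.07 for Ms4a3 (adjusted p from 0.19 to 0.88). For Slc29a3-/- Tlr7-/- against WT, 0 genes were called by limma, beside 0.0272% of amplicons, with values of 1.25 for Mpo to 3.58 for Ctsg (adjusted p from 0.056 to 0.30), and 5 had an unadjusted p under 0.05. A smaller pseudocount of 0.1, or leaving out Ly6C low WT replicate 4 or Ly6C hi Slc29a3-/- Tlr7-/- replicate 1, brought 4 genes past the threshold, and leaving out Ly6C hi WT replicate 4 brought 1. For Slc29a3-/- against Slc29a3-/- Tlr7-/-, 0 genes were called by limma, beside 4.53% of amplicons. Mpo (1.12, adjusted p = 0.083) and Ms4a3 (1.10, adjusted p = 0.12) had an unadjusted p under 0.05, and Mpo was called without Ly6C hi Slc29a3-/- replicate 2, and Ms4a3 without Ly6C hi Slc29a3-/- Tlr7-/- replicate 4. Comparisons against the same WT libraries share those libraries and are not independent of each other.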

How the data were processed

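RNA of sorted splenic monocytes was made into libraries with the Ion AmpliSeq Transcriptome Mouse kit, which amplifies 1 stretch per gene. The authors deposited a single table of RPM (reads scaled to 1000000 per library) for 23930 amplicons and 24 libraries, with reads aligned to mm10. The sample descriptions name the AmpliSeqRNA plug-in of Torrent Suite, and the study's methods name Cutadapt, STAR, and HTSeq. Which of them wrote the table is not given in the sources used here. Scaling to 1000000 RPM per library means that a rise of abundant transcripts lowers the values of all others. The table writes 0 as 0.0001, which was set back to 0, and 27 gene names turned into dates were repaired from the amplicon names. Library size was inferred from the step between low values, of which all under 5 RPM were whole multiples within 0.1 reads.

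Groups were taken from the labels, which do not say which libraries came from the same mouse, so p-values measure the spread between these libraries. No replicates were copies of each other, with the smallest chi-square per degree of freedom at 6.17. WT Ly6C hi replicates 1 to 3 were the closest, at 6.17 to 8.75 among themselves against 82.2 to 86.1 to replicate 4. Pairs within the mutant Ly6C hi groups were at 21.9 to 112. If WT replicates 1 to 3 came from separate mice is not given, so the WT spread may not be one between mice. Amplicons with at least 1 RPM in at least 4 libraries were fitted as log2(RPM + 1) with limma 3.58.1 in R 4.3.3, using lmFit, contrasts.fit, and eBayes with a trend. A fold change on this scale understates changes of low genes. One fit per subset held all 3 genotypes (12 libraries), and subsets and interactions in a fit of all 24. Genes were called at a fold over 1.5 and an adjusted p under 0.05 (Benjamini-Hochberg over all amplicons tested). Exact permutation tests compared groups of 4. The code was tested on simulated data. Count models had been planned as alternatives and were not run, because the table holds RPM with 0 written as 0.0001, and the inferred reads were used for depth and not as counts. Same-numbered libraries were checked for shared deviations from their group means. Only WT Ly6C hi and Ly6C low correlated above 0.1 for all 4 numbers (r from 0.26 to 0.62), so the numbers were not taken to pair the samples.

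The 6 genes and all lists were chosen with earlier results of these data known. Named beside the 6 genes were Slc29a3 and Tlr7, up to 4 called genes per list by largest change and mean level (10 RPM or more), and the 10 amplicons most like each gene. All other list genes in the text were named after their values were seen. Of the listed genes, Hax1, Meis1, Chil3, Ccnb1, Pcna, Ly6c2, Hba-a1, Hbb-bt, and Cd79a were not analysed here. Promoters and positions came from RefSeq on GRCm38.p6.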

Additional observations from a re-analysis of the deposited data

Results flagged for a closer look

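The effect of Slc29a3 loss on the 5 genes differed between the subsets by a test of the difference itself. The Ly6C hi log2 fold change exceeded the Ly6C low one by 3.71 for Elane, 3.24 for Prtn3, 3.23 for Ctsg, 3.16 for Ms4a3, and 2.37 for Mpo (adjusted p from 1e-04 to 0.0052, limma). Against WT replicate 4 alone in each subset, the values were 2.0, 1.00, 0.83, 2.07, and 1.35, and none passed the threshold, in a fit with 1 WT library per subset whose spread comes from the mutant groups. Mpo was near 0 in Ly6C low monocytes, so its value follows its Ly6C hi effect.

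In 2 of the 36 groups of 4 libraries, 1 library stood far from the other 3, and chance alone gives about 1 in 20 such groups. Ctsg in WT Ly6C hi monocytes was at 84.6 RPM in replicate 4 and at 54.5 to 59.4 RPM in replicates 1 to 3. Mpo in Slc29a3-/- Tlr7-/- Ly6C low monocytes was at 0.079 RPM in replicate 2, which is 1 read, and at 0 in the other 3 libraries.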

How the results depend on the processing

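Of 1195 values recomputed for 69 results of the 6 genes, 1123 kept their direction and their side of the threshold, 32 lost the call, 20 gained one, and 20 turned direction. The increase in Slc29a3-/- over WT Ly6C hi monocytes stayed called in 5 genes under the alternatives run, except with a mean of at least 10 RPM, where Mpo was not tested and 4 were called, and with WT replicate 4 alone, where 0 were called. The same setting gave 0 calls in the interaction of Slc29a3-/- against WT. It leaves 1 WT library per subset and no WT spread. In Slc29a3-/- Tlr7-/- against WT Ly6C low, 0 calls came from genes that no longer passed the filter, all 4 of those called with a mean of at least 10 RPM and with 2 groups only, and 3 of them with WT replicate 4 alone, where Ctsg was tested and not called. Without single libraries it had 0 to 4 calls. Slc29a3-/- against WT Ly6C low had 0 to 4 calls without single libraries, and 2 at an unadjusted p. The unadjusted p also gave 3 calls in Slc29a3-/- Tlr7-/- against WT Ly6C hi, 2 between the mutant genotypes in Ly6C low (1 with 2 groups only), 5 in the interaction of Slc29a3-/- Tlr7-/- against WT (4 with a pseudocount of 0.1, 0 to 4 without single libraries), and 2 in the interaction of the mutant genotypes (0 to 1 without single libraries).

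Cd34 turned direction most often. In Slc29a3-/- against WT Ly6C hi it was 0.000386 under TMM scaling, 0.91 with WT replicate 4 alone, and -0.47 to 0.060 without single libraries. For Slc29a3-/- Tlr7-/- against WT Ly6C hi it was -0.086 to 0.50 without single libraries. With WT replicate 4 alone it was 0.057 and 0.25 in Slc29a3-/- and Slc29a3-/- Tlr7-/- against WT Ly6C low and -0.39 between the WT subsets, and Ctsg in Slc29a3-/- against WT Ly6C low was 1.01. Without single libraries the interaction of Slc29a3-/- against WT was -0.14 to 0.39 for Cd34, and that of the mutant genotypes was -0.23 to 0.45 for Prtn3, -0.69 to 0.078 for Ctsg, and -0.43 to 0.16 for Cd34. The latter interaction was -0.063 for Elane, -1.47 for Prtn3, and -0.79 for Ms4a3 with a pseudocount of 0.1.

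With the replicate number as a block, 32 of 33 genotype results were on the same side of the threshold, and Elane in Slc29a3-/- Tlr7-/- against WT Ly6C low, at -2.08, had an adjusted p of 0.05 and lost its call. With genotype and number together as a block, all 36 subset and interaction results kept their side. The count models planned as alternatives were not run, because the table holds RPM with 0 written as 0.0001, and the reads inferred from it were used for depth and not as counts. TMM scaling moved the split of higher and lower calls over all amplicons from 951 and 868 to 1187 and 522 between the mutant genotypes in Ly6C hi, from 235 and 622 to 371 and 527 in Slc29a3-/- Tlr7-/- against WT Ly6C low, from 33 and 117 to 62 and 109 in Slc29a3-/- Tlr7-/- against WT Ly6C hi, and, in the interactions, from 454 and 513 to 638 and 373 for Slc29a3-/- against WT, from 3 and 4 to 1 and 3 for Slc29a3-/- Tlr7-/- against WT, and from 500 and 487 to 686 and 287 for the mutant genotypes. Below about 1 RPM, which is 12 to 15 reads, differences rest on few reads and on the pseudocount.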
